A study of Homo sapiens with 4 samples.

Results

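PARP9, PARP10, PARP12, PARP14, DTX3L, SAMD9, SAMD9L, XAF1, SP110 and EPSTI1 are 10 genes that interferon is known to switch on. They were chosen by name as the inducible PARPs with their partners and neighbours in the interferon response. Earlier results of these data were known when they and the comparison lists were chosen. Counts of members beside all genes or other lists therefore describe the members and do not test them. Their transcripts were followed in PC3, a human prostate cancer cell line, after knockdown of ALKBH3, an enzyme that removes alkyl groups from single-stranded DNA and RNA. The array files pair their probes with accessions and not with gene symbols, so the members were found through the RefSeq gene table of GRCh38.p14. It gave 13 probes for the 10 genes, among 34127 probes on the array of which 24910 could be named. Of the 10 members, 9 (12 probes) passed the filter on low signal, and these are 9 of the 14556 genes tested. EPSTI1 did not pass and is described by its values.

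Cells had been infected for 48 h with lentivirus, which delivered either the ALKBH3 shRNA or, in the control cells, a GFP shRNA, and then kept under puromycin for 48 h or 96 h. One single-colour Agilent array was available for each shRNA and time point, 4 arrays in all. Lentiviral infection, exposure to puromycin and the cell line were common to all 4 arrays, while the shRNA and the length of selection differed. The labels neither say which ALKBH3 shRNA was used nor that the arrays came from separate cultures, so p-values measure only the spread between these arrays. The 2 arrays of an shRNA differ in time point, and both arrays of a time point were on the same slide, so time and slide cannot be told apart.

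PARPs attach ADP-ribose from NAD+ to their targets, and most of the inducible ones add a single unit and not a chain. Interferon made by a cell binds receptors on it and its neighbours, and a complex of transcription factors that includes STAT2 and IRF9 then enters the nucleus and binds a short element in front of responsive genes, the interferon-stimulated response element. PARP9 works together with the ubiquitin ligase DTX3L, SAMD9 and SAMD9L are cytoplasmic proteins that restrict viruses and cell growth, XAF1 opposes the caspase inhibitor XIAP, and SP110 is a nuclear body protein related to SP100.

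Since the genes share this regulation, their start regions were searched first. RefSeq windows of 300 bases, from 250 bases before to 50 bases after an annotated start, were found for 9 members, all but PARP10, with 12 windows among them. The core of the response element, read as GAAANNGAAA on either strand, was found in 6 of the 12 windows, which belong to 6 of the 9 genes, against 3.57% of all 35116 windows. The gamma-activated sequence, the element of the type II interferon response, read as TTCNNNGAA, was found in 3 of the 12 windows (PARP14, SP110 and EPSTI1) against 7.66% of all windows. The matches to the first motif in these 6 genes are shown as they stand on the strand of each gene.

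PARP9: TTTCAGTTTC
PARP12: TTTCGGTTTC
PARP14: GAAAGCGAAA
DTX3L: GAAACTGAAA
SAMD9: GAAACTGAAA
EPSTI1: GAAACCGAAA

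The first base of the match lay 6 bases upstream of the start in DTX3L, 10 in PARP12, 29 in PARP14, 41 in PARP9, 50 in EPSTI1 and 136 in SAMD9. PARP9 and DTX3L lie head to head on chromosome 3, their windows share 137 bases, and the match counted for each is the same 10 bases (chr3:122564332-122564341) read on opposite strands. In EPSTI1 the matches to both motifs overlap, and in PARP14 they follow each other. The windows of SAMD9L, XAF1 and SP110 held no match to the first motif, which says only that these letters are absent from them. The windows of DTX3L, with the shared match, of PARP14, and of the neighbours SAMD9 and SAMD9L, of which one has a match and the other has none, are printed 5′ to 3′ on the strand of the gene. Capitals mark the match to GAAANNGAAA.

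DTX3L, chr3:122564088-122564387, plus strand: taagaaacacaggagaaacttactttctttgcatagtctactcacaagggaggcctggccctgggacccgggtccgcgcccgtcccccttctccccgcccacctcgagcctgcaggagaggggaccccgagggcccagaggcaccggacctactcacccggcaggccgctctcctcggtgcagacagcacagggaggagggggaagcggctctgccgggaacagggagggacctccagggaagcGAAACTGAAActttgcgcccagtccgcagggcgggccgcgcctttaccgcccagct
PARP14, chr3:122680589-122680888, plus strand: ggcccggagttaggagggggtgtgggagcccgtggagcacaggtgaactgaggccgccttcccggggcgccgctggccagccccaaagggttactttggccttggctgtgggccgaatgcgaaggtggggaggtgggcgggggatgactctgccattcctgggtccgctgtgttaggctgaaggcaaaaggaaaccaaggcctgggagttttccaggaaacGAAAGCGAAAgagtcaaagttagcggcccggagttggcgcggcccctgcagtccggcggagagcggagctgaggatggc
SAMD9, chr7:93117930-93118229, minus strand: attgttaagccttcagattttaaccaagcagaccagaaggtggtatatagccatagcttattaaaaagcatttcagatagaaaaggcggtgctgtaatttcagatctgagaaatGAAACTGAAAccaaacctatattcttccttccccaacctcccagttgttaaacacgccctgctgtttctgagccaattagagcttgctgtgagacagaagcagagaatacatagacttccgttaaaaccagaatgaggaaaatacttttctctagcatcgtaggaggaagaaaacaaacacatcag
SAMD9L, chr7:93148336-93148635, minus strand: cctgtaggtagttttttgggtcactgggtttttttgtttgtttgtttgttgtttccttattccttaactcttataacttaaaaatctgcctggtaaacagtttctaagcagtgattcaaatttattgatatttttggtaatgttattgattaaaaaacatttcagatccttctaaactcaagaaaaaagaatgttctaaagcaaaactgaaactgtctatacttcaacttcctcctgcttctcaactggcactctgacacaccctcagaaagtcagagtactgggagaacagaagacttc

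**Figure D1:**
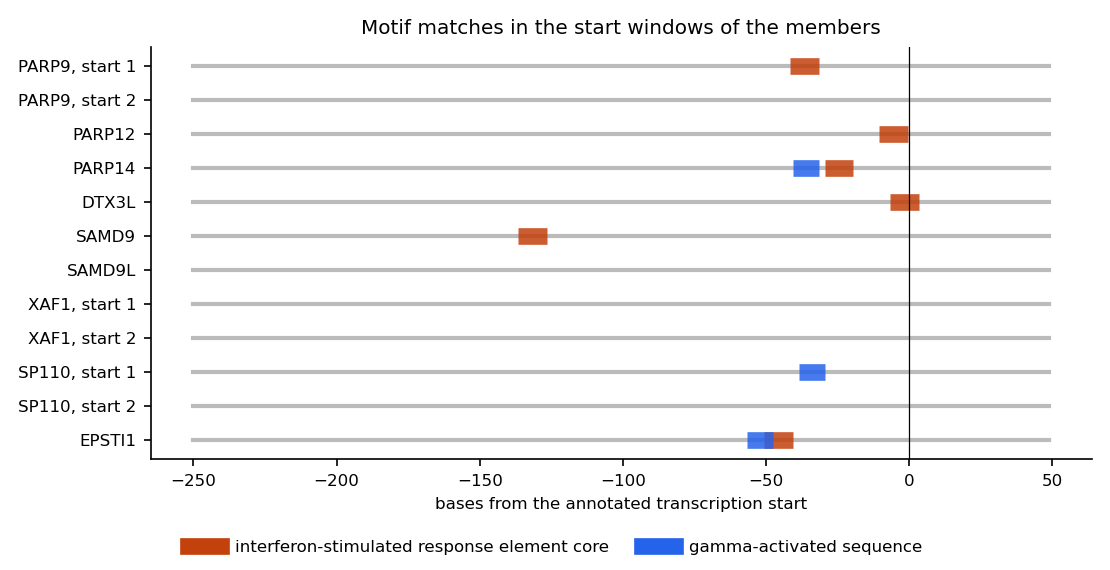
Position of the motif matches in the 12 start windows of the members, in bases from the annotated transcription start (vertical line); orange marks the interferon-stimulated response element core and blue the gamma-activated sequence. Most matches lie within 56 bases upstream of the start, and the one in SAMD9 lies at 136 bases.

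Values below are log2 signals, the log2 of the background-subtracted intensity relative to the 75th percentile of the same array, so that 0 is the signal of a fairly bright probe and a step of 1 is a factor of 2. A signal serves to compare arrays for a probe and not a probe with another. Fold changes are ALKBH3 shRNA over control shRNA. A fold change at 48 h or 96 h compares 1 array with 1 array and has no test. The log2 fold change over both time points is given with its standard error (SE, 2 arrays against 2) from limma, a linear model fitted to the 23244 probes that exceeded background on the pair of arrays of one shRNA or of both. A gene was called at a change of at least 2-fold with an unadjusted p below 0.05. After Benjamini-Hochberg adjustment over these probes the smallest limma p was 0.0917, so no gene passed at 0.05, while 1187 genes had an unadjusted p below it.

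The knockdown itself was seen on both arrays. ALKBH3 had a log2 signal of -0.74 and -0.89 with control shRNA and of -2.48 and -2.41 with ALKBH3 shRNA at 48 h and 96 h on its probe of highest mean signal. Its log2 fold change was -1.63 ± 0.13 (SE, n = 2 arrays against 2, limma adjusted p = 0.247), with -1.74 at 48 h and -1.51 at 96 h. A second probe changed by -2.05, with -2.03 and -2.07 at the 2 time points.

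At 48 h all 9 members tested were at least 2-fold higher with ALKBH3 shRNA, as were 1.88% of all genes tested. Their log2 fold changes ran from 1.12 to 2.20 with a median of 1.53, beside a median of -0.01 over all genes. At 96 h only SAMD9 was still at least 2-fold higher, against 1.46% of all genes, and the median of the members was 0.63. All members except XAF1 were higher at both time points, as were 34.6% of all genes. The fold change was larger at 48 h than at 96 h for 9 of 9, against 47.2% of all genes.

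**Figure D2:**
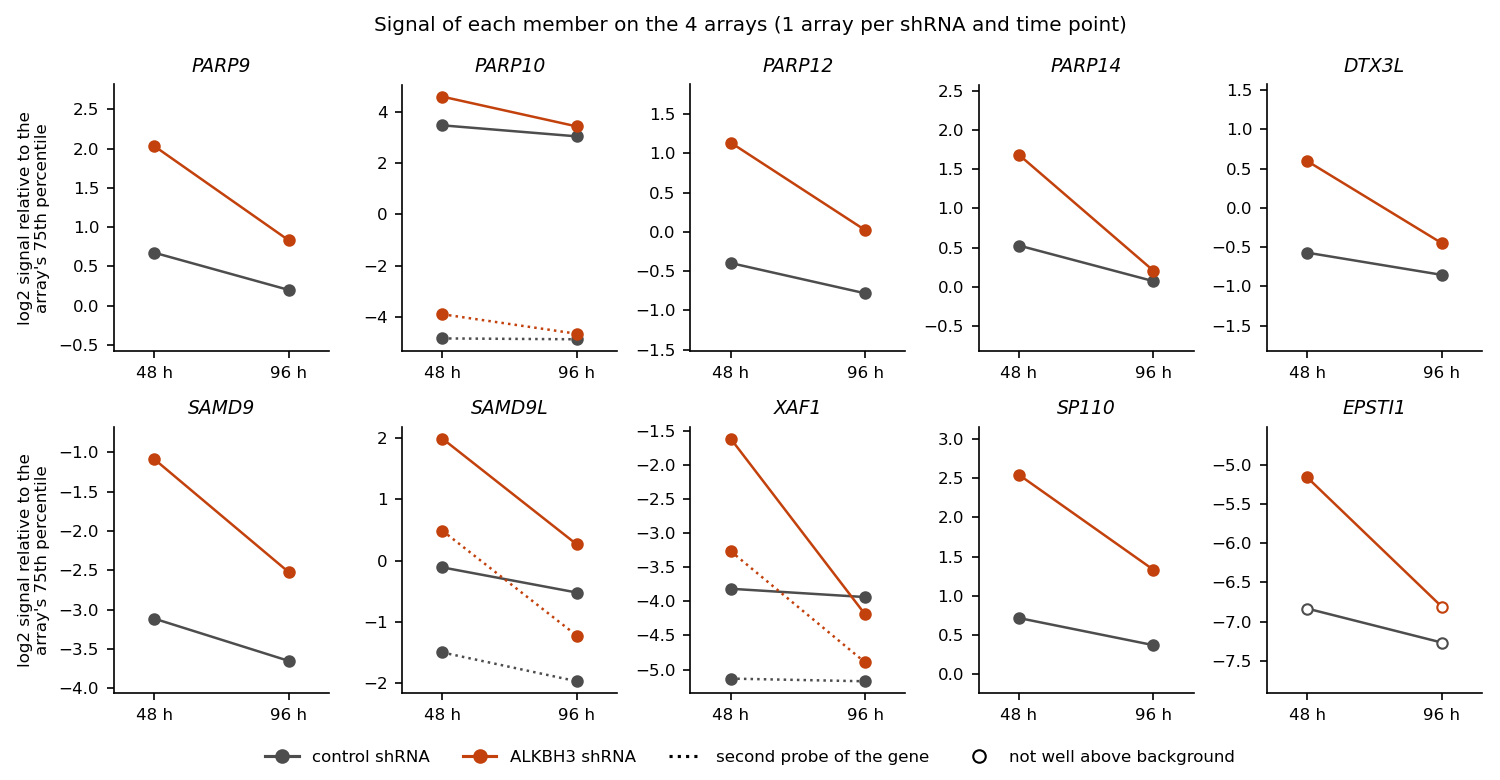
Log2 signal relative to the 75th percentile of each array (vertical axis, own range for each gene) at 48 h and 96 h of selection for the 10 members, 1 array per point; dotted lines are a second probe and open points were not well above background. ALKBH3 shRNA (orange) lies above control shRNA (grey) at every point but 1, XAF1 at 96 h, and the lines converge towards 96 h.

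PARP9 carries macrodomains that bind ADP-ribose and acts in a complex with DTX3L. Its log2 signal was 0.67 and 0.20 with control shRNA and 2.03 and 0.83 with ALKBH3 shRNA, each at 48 h and 96 h. Both ALKBH3 shRNA arrays lay above both control arrays. The gene was 2.56-fold higher at 48 h and 1.55-fold higher at 96 h. Over both, its log2 fold change was 0.996 ± 0.440 (limma adjusted p = 0.707), and it missed the call.

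DTX3L, the deltex-type ubiquitin ligase that starts next to PARP9, had values of the same shape. Control shRNA gave -0.57 and -0.85 and ALKBH3 shRNA 0.60 and -0.45, again without overlap of the groups. It was 2.25-fold higher at 48 h and 1.32-fold higher at 96 h. The log2 fold change over both was 0.79 ± 0.37 (limma adjusted p = 0.729).

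PARP10, a mono-ADP-ribosyltransferase first found as a partner of MYC, was measured by 2 probes. On the first, control shRNA gave 3.49 and 3.06 and ALKBH3 shRNA 4.61 and 3.44. The ALKBH3 shRNA array at 96 h therefore fell just under the control array at 48 h, so the groups overlapped, although each time point taken alone showed a higher value with ALKBH3 shRNA. The log2 fold changes at 48 h and 96 h were 1.12 and 0.39 on this probe and 0.95 and 0.22 on the second, and the change over both time points on the first was 0.76 ± 0.43 (limma adjusted p = 0.775).

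PARP12, a zinc-finger mono-ADP-ribosyltransferase with antiviral activity, was among the members that were called. It was spotted 10 times on each array, and the spots had an SD of 0.069 to 0.098 log2 units within an array. Control shRNA gave -0.40 and -0.78 and ALKBH3 shRNA 1.14 and 0.02, without overlap. PARP12 was 2.90-fold higher at 48 h and 1.75-fold higher at 96 h, with a log2 fold change of 1.17 ± 0.40 over both (limma adjusted p = 0.620).

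PARP14, which combines macrodomains with mono-ADP-ribosyltransferase activity and is known as a cofactor of STAT6, kept the least of its change among the PARPs. Control shRNA gave 0.53 and 0.07 and ALKBH3 shRNA 1.68 and 0.21. It was 2.23-fold higher at 48 h and 1.10-fold higher at 96 h, and the 96 h array with ALKBH3 shRNA lay below the 48 h control array. Only 11.5% of its log2 fold change at 48 h was left at 96 h, against 34.5% for PARP10, 46.5% for PARP9 and 52.5% for PARP12. Its change over both time points was 0.64 ± 0.52 (limma adjusted p = 0.879).

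The rest of the PARP family gave a background for these values. Of 13 further family genes on the array 11 were tested, and 0 of them passed the call in limma, in either direction, with 0 at an unadjusted p below 0.05. Their median log2 fold change was 0.04, with a range from -0.42 (PARP11) to 0.48 (PARP8). PARP1, the main chain-forming enzyme of DNA repair, had log2 signals of 2.94 and 2.45 with control shRNA and 2.75 and 2.65 with ALKBH3 shRNA, which makes a log2 fold change of 0.00. PARP2 changed by 0.13 and TIPARP, an inducible family member of the aryl hydrocarbon receptor response, by -0.23. ZC3HAV1, the zinc-finger antiviral protein, depended on the probe. Its probe of higher signal changed by -0.14 at 48 h and 0.06 at 96 h, and its other probe by 1.23 and 0.33. The 10 genes that read or remove ADP-ribose, among them MACROH2A1 (-0.06), CHD1L (-0.04), ADPRS (0.20) and OARD1 (0.08), had 0 calls in limma, 0 at an unadjusted p below 0.05, and a median log2 fold change of -0.003, with a range from -0.13 to 0.20.

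**Figure D3:**
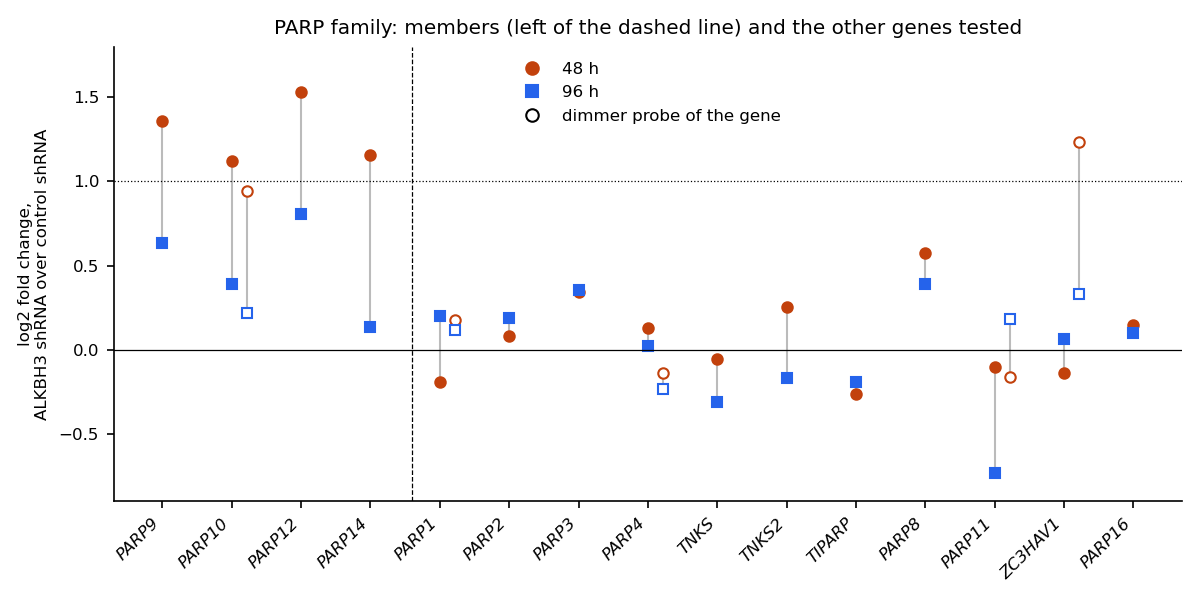
Log2 fold change, ALKBH3 shRNA over control shRNA, at 48 h (orange circles) and 96 h (blue squares) for the PARP members and the 11 other PARP family genes tested, 1 array against 1 array; open symbols are dimmer probes of a gene and the dotted line marks 2-fold. The 4 members stand at 1.12 to 1.53 at 48 h, the other genes between -0.26 and 0.57 on their brightest probe.

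Among the other deltex genes, DTX2 changed by 0.11 and DTX3 by -0.02. DTX4 passed the filter only through the arrays with ALKBH3 shRNA, since its probe did not rise well above background on the control arrays. It was at least 1.93-fold higher (limma adjusted p = 0.394), the bright mean set against the higher of its own signal and the lowest signal above background on each dim array. The limma fit puts DTX4 past the call, but this bound lies under the 2-fold cutoff, and nothing is read from its single time points.

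SAMD9 showed the largest change over both time points of the 9 members. Control shRNA gave -3.12 and -3.65 and ALKBH3 shRNA -1.08 and -2.52, so the groups were clearly apart. It was 4.09-fold higher at 48 h and 2.19-fold higher at 96 h. Over both, the log2 fold change was 1.58 ± 0.52 (limma adjusted p = 0.597).

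SAMD9L, its paralogue and direct neighbour on chromosome 7, had 2 probes. The first gave -0.11 and -0.52 with control shRNA and 1.99 and 0.27 with ALKBH3 shRNA, without overlap. It was 4.29-fold higher at 48 h and 1.72-fold higher at 96 h, and both probes moved alike, with log2 fold changes of 2.10 and 0.79 on the first and 1.99 and 0.74 on the second. Over both time points the first probe changed by 1.44 ± 0.60 (limma adjusted p = 0.686), short of the call.

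XAF1 had the largest log2 fold change at 48 h of the 9 members and the only negative one at 96 h. Its first probe gave -3.81 and -3.94 with control shRNA and -1.61 and -4.19 with ALKBH3 shRNA. Only the 48 h ALKBH3 shRNA array stood out, 4.60-fold above control, while the 96 h pair gave a log2 fold change of -0.25. The second probe changed by 1.87 at 48 h and by 0.28 at 96 h, so the sign at 96 h rests on the probe. The drop between the time points, 2.46 log2 units, ranked 4 among all 14556 genes. The change over both was 0.97 ± 0.86 (limma adjusted p = 0.898). XIAP, the caspase inhibitor that XAF1 binds, changed by -0.02 on its probe of highest signal and by 0.26 on its other probe. BIRC5 changed by 0.02, DIABLO by 0.04 and HTRA2 by -0.06. Of the 8 genes of the XAF1 pathway tested 0 were called in limma, with 3 at an unadjusted p below 0.05 (BIRC2, BIRC3 and NAIP). BIRC3, a further inhibitor of apoptosis, had the largest change (0.84, unadjusted p = 0.00178, adjusted p = 0.361).

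SP110, also spotted 10 times, was called as well. Control shRNA gave 0.72 and 0.37 and ALKBH3 shRNA 2.54 and 1.33, without overlap, and the SD of its spots within an array was 0.041 to 0.076. It was 3.54-fold higher at 48 h and 1.95-fold higher at 96 h. The log2 fold change over both was 1.39 ± 0.43 (limma adjusted p = 0.568).

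Its relatives differed. SP140L was called (1.07, with 1.70 at 48 h and 0.43 at 96 h, limma adjusted p = 0.578), and SP140 had a change of 0.81 short of the call. SP100 changed by 0.13 on its probe of highest signal and by 0.92 and 0.45 on the other probes, a split between probes like that of ZC3HAV1.

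EPSTI1, first described in breast epithelium grown with stromal cells, was near background. Its 10 spots averaged -6.83 and -7.27 with control shRNA and -5.16 and -6.81 with ALKBH3 shRNA. It was well above background only on the ALKBH3 shRNA array at 48 h, where it was at least 3.18-fold higher than on the control array. At 96 h it was above background on neither array, and no fold is given.

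In all, 3 of the 9 members tested (PARP12, SAMD9 and SP110) were called higher, against 1.06% of all genes tested. Both ALKBH3 shRNA arrays lay above both control arrays for 6 of the 9 (all but PARP10, PARP14 and XAF1), against 17.4% of all genes. The median log2 fold change over both time points was 0.996, with a range of 0.64 to 1.58, beside -0.003 over all genes. The call rests on single arrays. Without the 48 h ALKBH3 shRNA array, or without the 96 h control array, 0 members were called in limma, and without the 96 h ALKBH3 shRNA array all 9 were.

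The order of the members by log2 fold change at 48 h was XAF1, SAMD9L, SAMD9, SP110, PARP12, PARP9, DTX3L, PARP14 and PARP10, from rank 33 to rank 200 among all genes. Neighbours in this order differed by at most 0.29 log2 units. Each place rests on 1 array against 1, so the spread of these gaps is not known. The SE over both time points does not measure it. That SE was at least 0.37 for the members, or at least 0.19 with the time point fitted as a block. The order at 96 h was another: SAMD9 and SP110 led, and PARP14 and XAF1 came last at ranks 3892 and 12805. On its first probe XAF1 fell from first place to last. The second XAF1 probe, with 1.87 at 48 h and 0.28 at 96 h, would hold neither place.

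**Figure D4:**
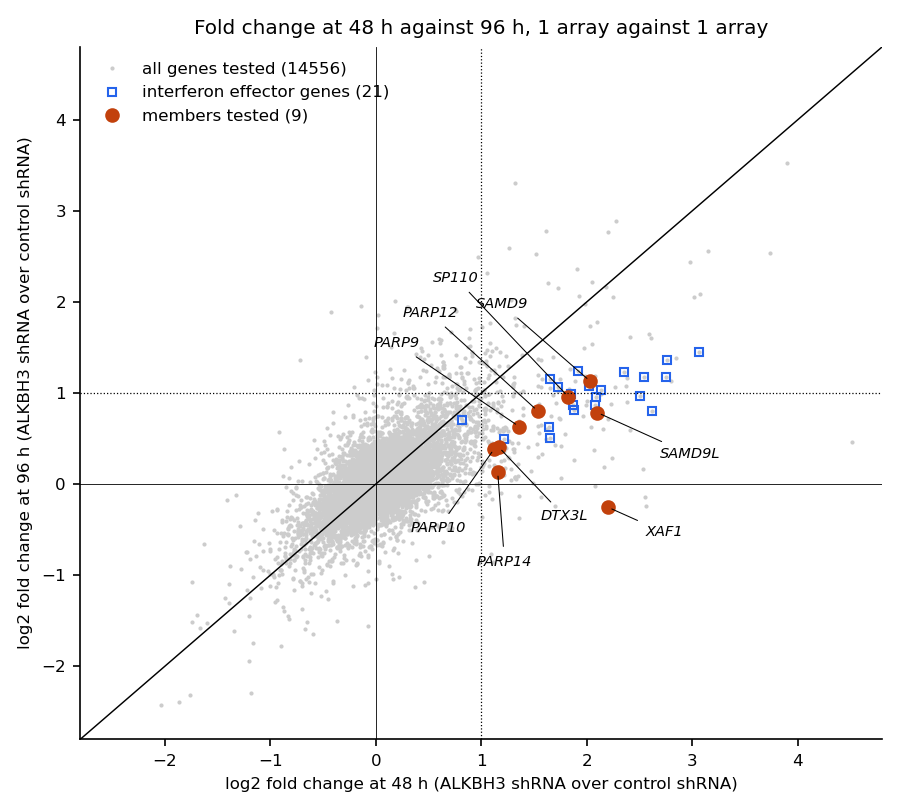
Log2 fold change at 48 h (horizontal) against 96 h (vertical), 1 array against 1 array, for all 14556 genes tested (grey), 21 interferon effector genes (blue) and the 9 members (orange); dotted lines mark 2-fold and the diagonal marks equal change. All 9 members lie right of the 2-fold line and under the diagonal, and XAF1 lies below 0 at 96 h.

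Since the arrays of a time point shared a slide, limma was also fitted with the time point as a block. Deviations from the group means correlated between arrays of the same time point (r = 0.703 across 14556 genes, which are not independent replicates). With the block, SAMD9L joined the 3 members called, 4 of 9 against 1.33% of all genes. SAMD9 alone of the members then had an adjusted p below 0.05 (limma with block, adjusted p = 0.0481), against 2.29% of all genes. SP110 and PARP12 had adjusted p = 0.0536 and 0.0560 in this fit. Genes of other lists moved with the block too. Of the 21 interferon effector genes 19 were called, and 4 had an adjusted p below 0.05 (limma with block). So did SP140 (0.0386), BIRC3 (0.0399), DTX4 and 1 interferon receptor or kinase gene. Since DTX4 passed the filter only through the ALKBH3 shRNA arrays, nothing is read from its adjusted p. The other PARP family genes, the ADP-ribose readers and erasers, and the interferon ligand, transcription factor and housekeeping genes had 0 at this adjusted p. In these lists 1 gene, an interferon transcription factor gene, was called with the block.

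**Figure D5:**
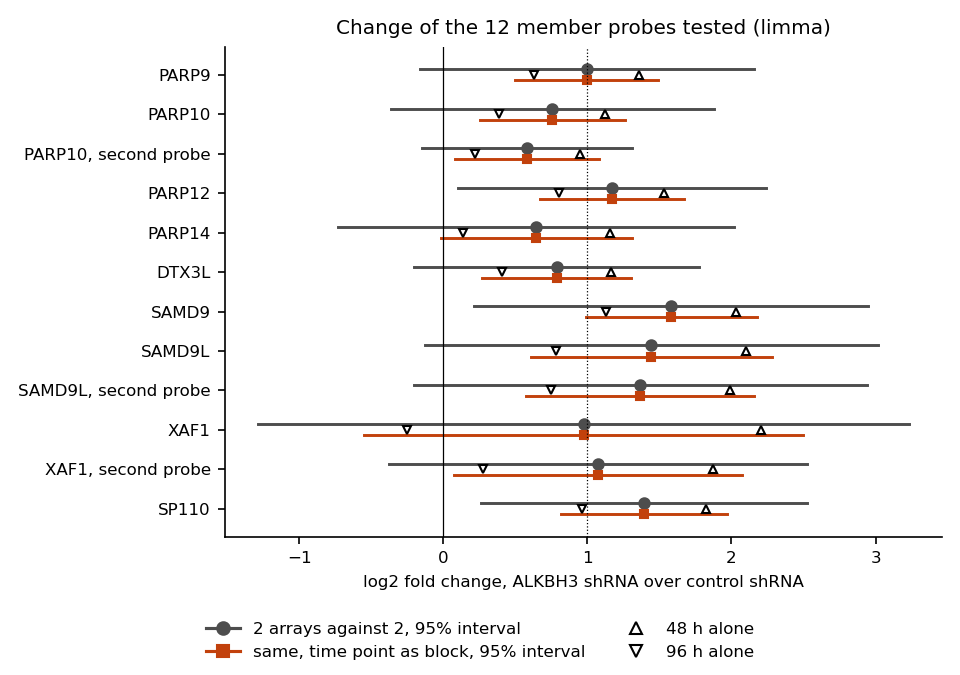
Log2 fold change, ALKBH3 shRNA over control shRNA, of the 12 member probes tested, with 95% intervals from limma without (grey) and with (orange) the time point as a block; triangles are the single time points and the dotted line marks 2-fold. The grey intervals of PARP12, SAMD9 and SP110 alone lie above 0, and with the block only those of PARP14 and the first XAF1 probe reach below 0.

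The fall from 48 h to 96 h was seen with both shRNAs. With control shRNA the log2 signal of 9 of 9 members was lower at 96 h, against 52.5% of all genes, by a median of 0.41 and at most 0.54 log2 units (SAMD9). With ALKBH3 shRNA 9 of 9 were lower, against 49.6% of all genes, and the median difference was -1.21 log2 units. XAF1 fell by 2.58 there. The log2 fold change of the members was thus smaller at 96 h by a median of 0.86, beside -0.01 over all genes. This difference could not be tested, because each shRNA and time point has 1 array.

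Genes upstream of the members were compared on the same arrays. IFNB1, the interferon beta gene, was well above background only on the 48 h ALKBH3 shRNA array (log2 signal -5.45, at least 2.65-fold over control), as was EPSTI1. IFNL1 and IFNL2, which encode type III interferons, changed by 1.09 and 1.32 at 48 h. At 96 h IFNL2 changed by 0.08, and IFNL1, not well above background on the control array there, was at least 1.51-fold higher. IFNE and IFNA4 changed by -0.08 and 0.06 over both time points. Of 17 ligand genes on the array 6 were tested, and 0 were called in limma, with 1 (IFNL1) at an unadjusted p below 0.05. IFNL1 was above background on 3 of the 4 arrays and passed the filter only through the arrays with ALKBH3 shRNA. Its p (limma, unadjusted, 0.0195) rests in part on a control value near background, and nothing is read from it. The 9 receptor and kinase genes had 0 calls in limma, 0 at an unadjusted p below 0.05, and a median log2 fold change of 0.01. IFNAR1 and IFNAR2, the receptor of type I interferon, changed by -0.07 and 0.01, IFNGR2 by -0.03 and IL10RB by 0.13. IFNLR1, a receptor chain for type III interferon, had the largest (0.71, unadjusted p = 0.0744). Of the 6 transcription factor genes 0 were called in limma without the block, with 1 (IRF7) at an unadjusted p below 0.05. The largest change of this list over both time points, 1.14, belonged to another gene. That gene was called with the block and not without it. IRF7 changed by 1.01 at 48 h and 0.51 at 96 h (unadjusted p = 0.00945), STAT2 by 0.71 and 0.10 and IRF9 by 0.36 and 0.37.

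Of 21 effector genes of interferon set beside the members, 13 were called higher in limma without the block. The median log2 fold change of the 21, 2.02 at 48 h and 0.99 at 96 h, stood beside 1.53 and 0.63 for the members. Those called were HERC5, HERC6, IFI44, IFI44L, IFI6, IFIH1, IFIT1, IFIT3, MX1, MX2, OAS1, OAS3 and RIGI, from 1.34 (HERC5) to 2.06 (MX2) over both time points. All 21 had a larger change at 48 h. The 12 housekeeping genes had 0 calls in limma, 2 at an unadjusted p below 0.05, and a median of -0.03, with RPLP0 at -0.16, and ACTB and PPIA at -0.03 each. The genes whose course over the 4 arrays came closest to the median course of the members, by the root mean square difference after centring each gene, were IFITM4P (0.059 log2 units), MUCL1 (0.081), CYP2J2 (0.087), IFIT2 (0.092) and USP18 (0.092). MUCL1 was above background on only 3 of the 4 arrays. Its control signals, -6.09 and -6.30, lay near background, and nothing is read from its place. Among the members PARP9 was nearest to the median course (0.071) and XAF1 farthest (0.472).

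Markers of the cells themselves were checked. All 6 markers fixed for PC3 as an epithelial carcinoma, the mesenchymal gene VIM among them, were above background on all arrays. Their log2 fold changes ran from -0.18 to 0.98, with 0 called and 1 at an unadjusted p below 0.05 in limma. KLK3, the prostate-specific antigen gene, was above background on no array, and PC3 is known to lack it. Of the 7 leukocyte markers 6 were above background, with a summed level between 0.660 and 0.953 times the 75th percentile, and HLA-DRA was on no array. The summed level of the 6 fibroblast markers was higher with ALKBH3 shRNA at both time points (1.02 against 0.661 at 48 h and 0.793 against 0.430 at 96 h). Of these, 3 were above background on all arrays and COL1A2 and PDGFRB on none. The 4 tested had log2 fold changes from -0.43 to 1.98, and 3 were higher. LUM was called, but it was above background on 1 of the 2 control arrays. It passed the filter only through the ALKBH3 shRNA arrays, and nothing is read from its call. The summed level of the 4 endothelial markers was lower (0.563 against 0.843 and 0.494 against 0.897). Their part in the change of the members was not tested. The share of probes above background was 67.0% to 70.9% on the 4 arrays, whose number limits the precision of every value.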

How the data were processed

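RNA from PC3 cells with ALKBH3 shRNA or control shRNA, at 48 h and 96 h of selection, was hybridised to 4 single-colour Agilent arrays. The authors deposited spot intensity values from Agilent Feature Extraction (version 10.7.3.1 in the file headers), background-subtracted within each array and not normalized between arrays. They also deposited log2 values normalized between arrays, used as an alternative.

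Of 43118 spots that are not controls, 180 to 379 per array marked as outliers were removed, and 0 were saturated. Log2 intensities were centred on the 75th percentile of the array (2150 to 2394) and averaged over the spots of a probe. A probe was above background where at least 0.5 of its spots were, and the tested probe of highest mean signal stood for a gene. Names came from accessions matched to RefSeq (GRCh38.p14), whose promoter table gave the sequences. limma 3.58.1 in R 4.3.3 compared 2 arrays with 2, without a block as the main fit. Same-numbered arrays share a time point and a slide, and the block was an alternative, as were other background corrections, scalings, filters, cutoffs, the methods' test and each array left out. The script was tested on simulated data.

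The members and all gene lists were chosen with earlier results of these data known. Named were all members with every probe, ALKBH3, called genes of each list and otherwise up to 4 of highest signal, and the 5 genes most like the members. Further list genes were named after their values were seen, and some genes that this rule covers are not reported here.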

Additional observations from a re-analysis of the deposited data

Results flagged for a closer look

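XAF1 moved in opposite directions at the 2 time points. On its first probe the 48 h arrays gave a log2 fold change of 2.20 and the 96 h arrays one of -0.25, each 1 array against 1 array, and the difference was not tested. The second probe changed by 1.87 and 0.28.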

How the results depend on the processing

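The median log2 fold change of the members was 0.996 and ran from 0.40 to 1.73 when 1 array was left out. With the other alternatives it ran from 0.86 (normexp background correction) to 1.03 (no filter on dim probes). The difference between 48 h and 96 h ran from 0.86 to 0.90. Of 18 alternatives, 12 left the count of members called between 2 and 4, against 3. It was 0 with the methods' unpaired Student test and 0 with limma adjusted p, 1 with adjusted p and the time point as a block (added after the data were seen), and 0 to 9 with 1 array left out, a setting in which the lone array of an shRNA is assumed to vary like the others. The replicate block moved it from 3 to 4 and no other member's call than that of SAMD9L. The second XAF1 probe, which does not stand for its gene in this count, passed the call with the block (1.07, limma with block, unadjusted p = 0.0403). Without the 48 h ALKBH3 shRNA array PARP14 turned to -0.094 and XAF1 to -0.32, and with 1 array left out they reached 1.38 and 2.26 at most. Genes called in the other lists, 15 in all with DTX4, came to 0 with the Student test and to 5 to 26 with 1 array left out. SAMD9 fell under 2-fold at 96 h with normexp background correction and with the authors' values, where 0 members passed. XAF1 was higher at 96 h when its probes were averaged. No scaling moved the median of all genes by over 0.1. EPSTI1 and the dim XAF1 probes are limited by their signal over background.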
